A study of Mus musculus with 15 samples.

Results

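The genes described here encode subunits of the chromatin remodelling complexes that hold actin or actin-related proteins: the BAF family, INO80, SRCAP and TIP60. A fixed list of 46 gene names was looked up in a table of 53023 genes, and all 46 were found. Of these, 24 belong to BAF, 6 to INO80, 13 to SRCAP or TIP60, and 3 are shared between families (Actl6a, Ruvbl1 and Ruvbl2). The material was polyadenylated RNA of ICR mouse embryos at the 2-cell stage, 5 to a pool, collected 32 hours after insemination in a study of what follows when filamentous actin in the nucleus is disturbed. Each of 3 pairs, C, B and A, holds 2 pools, called C1 and C2, B1 and B2, and A1 and A2.

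The annotation of the injected mRNA and the sample titles contradict each other for these libraries. By the annotation, pair C was injected with actinR62D-HA-NLS, pair B with actinWT-HA-NLS and pair A was not injected. By the titles, pair C was the non-injected control, pair B was R62D and pair A was Wt, which the series design describes as wild-type actin overexpressed in nuclei. R62D is an actin mutant used to disrupt filaments, HA is an epitope tag and NLS is a nuclear localisation signal. The mRNA was made outside the embryo and injected into zygotes, so its dose in each cell depends on injection. Comparisons are given by pair, and each has both readings.

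Remodellers use ATP to slide, evict or exchange nucleosomes. In the complexes studied here, actin and actin-related proteins bind the large ATPase subunit. Many, with monomeric actin, sit on its helicase-SANT-associated region, while Actr5 of INO80 and Actr6 of SRCAP bind near the insertion in its motor domain. BAF opens chromatin at promoters and enhancers, INO80 spaces and edits nucleosomes, SRCAP and the TIP60 complex exchange H2A for the variant H2A.Z, and TIP60 also acetylates histones. Maternal Smarca4 is known to be needed for activation of the mouse zygotic genome, which takes place around the 2-cell stage.

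Libraries held 907210 to 1555431 assigned reads. Principal component 1 of all tested genes (28.7% of the variance) set A2 (score 49.3) and C2 (score 49.7) apart from the other libraries (-32.7 to -11.1). Summed FPKM of 8 oocyte and egg markers was also lowest in these libraries, at 542.5 in C2 and 526.2 in A2 against 934.2 to 1149 in the others. Oosp1 made up the largest part of this sum (mean 622.9 FPKM). Gdf9, Bmp15, H1foo and Oosp1 were each lowest in C2 and A2, but Padi6, Nlrp5 and Zp3 were not. Zp3 was highest in A2 (142.0 FPKM), and Zar1 was below the filter. The 6 markers of the 2-cell embryo were all above the filter, with sums of 776 (C2) and 624.3 (A2) against 805.6 to 1361 in the others. Of 10 cumulus and granulosa cell markers 5 were at 0 in every library (Foxl2, Fshr, Inha, Inhba and Ptx3), and the list had 8.5 to 32 reads, with Amhr2 the highest at a mean of 5.40 FPKM. Of 7 sperm markers 3 were at 0 (Odf1, Prm1 and Tnp2), and the list had 46 to 93 reads, most of them from Ldhc, at a mean of 36.0 FPKM. The 6 blood markers had 7 to 73 reads, with Hbb-bs and Hbb-bt at 0, while Hba-a1 ran from 4.75 FPKM in C2 to 42.3 FPKM in A1 and Hba-a2 from 4.13 FPKM in C2 to 38.5 FPKM in A1. The part of these differences in the results below was not tested.

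The upstream sequences of the 4 genes that mark the range of levels are shown first, because they are the regulatory DNA of the most abundant subunits (Actr6 and Ruvbl1) and of the paralogues that differ most in level (Actl6a and Actl6b). Each runs 5′ to 3′ on the gene's strand, from 250 bases before to 50 bases after a RefSeq start (build GRCm38.p6). Capitals mark matches on either strand to CGGAAG (an ETS-type core), GGGCGG (GC box), CCAAT or TATAAA. Windows lie at chr10:89732246-89732545 (Actr6, minus strand), chr6:88465159-88465458 (Ruvbl1, plus strand), chr3:32708296-32708595 (Actl6a, plus strand) and chr5:137553296-137553595 (Actl6b, plus strand). The Actl6a window lies inside the gene as the table annotates it, downstream of its outermost start. Actr6 has a further RefSeq window, and the first listed is shown.
Actr6: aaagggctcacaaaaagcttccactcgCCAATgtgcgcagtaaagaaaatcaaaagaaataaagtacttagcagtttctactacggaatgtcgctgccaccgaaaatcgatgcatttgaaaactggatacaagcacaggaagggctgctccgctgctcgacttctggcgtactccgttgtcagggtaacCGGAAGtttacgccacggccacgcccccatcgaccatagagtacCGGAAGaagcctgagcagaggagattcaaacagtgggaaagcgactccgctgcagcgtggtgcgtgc
Ruvbl1: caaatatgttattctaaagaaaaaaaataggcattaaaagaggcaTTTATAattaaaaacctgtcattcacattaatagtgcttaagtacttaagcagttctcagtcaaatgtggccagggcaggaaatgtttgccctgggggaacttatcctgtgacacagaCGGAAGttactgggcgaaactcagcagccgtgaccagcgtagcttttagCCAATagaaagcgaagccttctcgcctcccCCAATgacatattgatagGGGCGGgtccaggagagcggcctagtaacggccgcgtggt
Actl6a: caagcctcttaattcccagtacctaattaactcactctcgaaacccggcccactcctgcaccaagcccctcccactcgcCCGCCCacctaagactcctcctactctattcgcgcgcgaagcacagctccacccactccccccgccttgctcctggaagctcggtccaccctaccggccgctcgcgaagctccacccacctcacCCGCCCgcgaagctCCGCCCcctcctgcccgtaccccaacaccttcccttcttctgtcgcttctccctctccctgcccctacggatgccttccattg
Actl6b: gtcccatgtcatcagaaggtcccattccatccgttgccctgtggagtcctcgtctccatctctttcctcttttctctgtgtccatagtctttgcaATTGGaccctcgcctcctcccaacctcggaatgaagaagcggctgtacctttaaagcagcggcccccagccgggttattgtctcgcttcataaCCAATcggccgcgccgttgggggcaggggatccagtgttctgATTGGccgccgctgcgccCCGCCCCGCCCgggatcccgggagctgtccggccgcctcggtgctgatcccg

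Actr6 had 2 matches to CGGAAG, 1 to CCAAT and none to GGGCGG. Ruvbl1 had 1 match to CGGAAG, 2 to CCAAT, 1 to GGGCGG and 1 to TATAAA. Actl6a, which was expressed, had 3 matches to GGGCGG and 21 CG dinucleotides. Actl6b, which was close to undetected, had 2 overlapping matches to GGGCGG, 3 to CCAAT and 23 CG dinucleotides, so the count of CG did not separate these paralogues. RefSeq windows matched 37 of the 46 genes, with 44 windows in all. Of these 81.8% held GGGCGG, 29.5% CGGAAG, 31.8% CCAAT and 4.55% TATAAA. Among 21263 windows of protein-coding genes the shares were 46.2%, 21.1%, 38.2% and 12.6%, and among all 32851 windows 35.7%, 16.9%, 37.4% and 13.6%. The median number of CG dinucleotides was 26 for the remodeller genes and 13 for protein-coding genes. It was 37 for the 8 matched genes with a mean under 1 FPKM, 23 for 19 genes of 1 to 10 FPKM and 25.5 for 10 genes of at least 10 FPKM, so the least expressed subunits did not have fewer CG.

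Levels are given as FPKM (fragments per kilobase of gene length, scaled by the assigned fragments of the library), which allows genes to be set side by side, with a gene length made of all annotated exons. Of the 46 genes 11 averaged at least 10 FPKM over the 6 libraries, 26 averaged 1 to 10 FPKM and 9 averaged under 1 FPKM. Those 37 at or above 1 FPKM entered the tests. The median of the means was 3.51 FPKM over all 46 genes and 5.59 FPKM over the 13443 genes tested, which were chosen for their level. By class it was 4.18 FPKM for BAF, 1.93 FPKM for INO80 and 3.30 FPKM for SRCAP and TIP60.

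**Figure D1:**
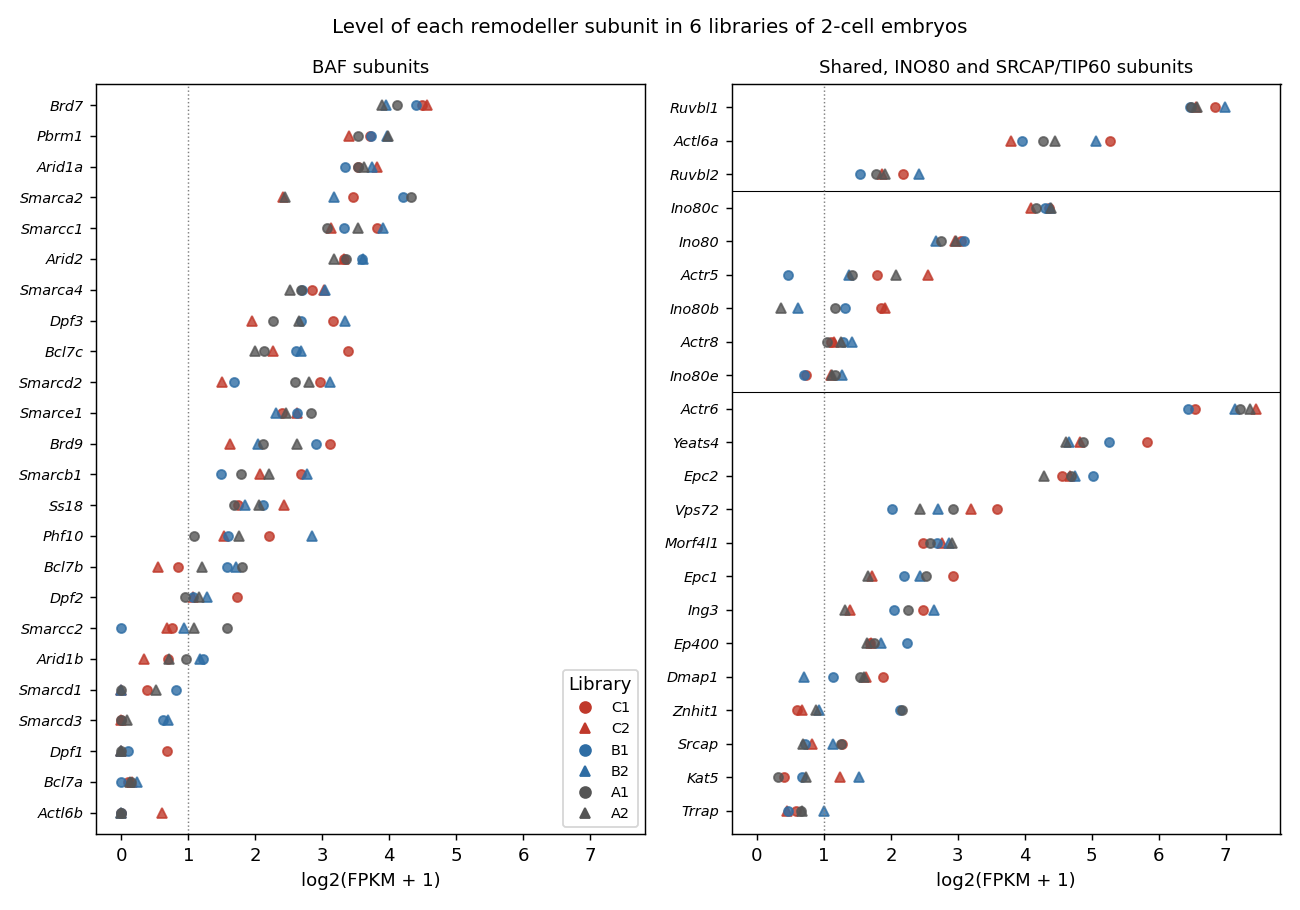
Level of each of the 46 subunits in the 6 libraries, as log2(FPKM + 1), with colour for the pair and circle or triangle for library 1 or 2. The dotted line is at 1 FPKM, and Actr6 and Ruvbl1 stand furthest to the right, at 85.7 to 173.4 and 87.8 to 125.6 FPKM.

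The actin-related proteins covered the whole range. Actr6, an actin-related subunit of SRCAP, measured 92.1 (C1) and 173.4 FPKM (C2) in pair C, 85.7 (B1) and 140.6 FPKM (B2) in pair B, and 146.7 (A1) and 163.3 FPKM (A2) in pair A. Its mean of 133.6 ± 36.6 FPKM (SD, n = 6 libraries) was above that of 95.1% of tested genes. Library 2 was higher than library 1 in each pair. Both B libraries were below both A libraries, as for 12.8% of all tested genes, and pair C overlapped both other pairs.

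Actl6a, the actin-related subunit shared between the families, measured 37.5 (C1) and 12.9 FPKM (C2) in pair C, 14.5 (B1) and 32.5 FPKM (B2) in pair B, and 18.3 (A1) and 20.8 FPKM (A2) in pair A. The spread within pair C was wider than any difference between pair means. Its paralogue Actl6b, the form of differentiated neurons, had 2 reads in C2 (0.52 FPKM, 95% exact Poisson interval 0.063 to 1.87 FPKM) and 0 in the other 5 libraries, where a count of 0 allows up to 0.452 to 0.703 FPKM at a floor of 3 reads. Intervals and floors cover counting error only, since PCR copies carry no molecular identifiers.

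The INO80 subunits Actr5 and Actr8, which belong to separate modules of that complex, were far lower. Actr8 measured 1.14 (C1) and 1.22 FPKM (C2) in pair C, 1.45 (B1) and 1.67 FPKM (B2) in pair B, and 1.05 (A1) and 1.39 FPKM (A2) in pair A. Actr5 averaged 2.36 ± 1.55 FPKM and Actr8 1.32 ± 0.23 FPKM (SD, n = 6), and Actr5 was higher in 4 of 6 libraries, so their order is not settled. Actr6 was above Actl6a, and Actl6a above Actr5 and Actr8, in 6 of 6 libraries, with no overlap of the ranges. In ratios of means, Actr6 stood 5.87-fold above Actl6a, and Actl6a 9.63-fold above Actr5.

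Among the ATPases, Smarca2 and Smarca4 drive BAF as alternatives, Ino80 drives INO80, Srcap drives SRCAP and Ep400 the TIP60 complex. Smarca4 measured 6.16 (C1) and 7.15 FPKM (C2) in pair C, 5.49 (B1) and 7.24 FPKM (B2) in pair B, and 5.40 (A1) and 4.70 FPKM (A2) in pair A, from 34 to 62 reads. Every C library and B library was above both A libraries. Of all tested genes, 16.5% were so separated in C against A and 18.8% in B against A. The exact Poisson intervals of B1 (4.01 to 7.35 FPKM) and A1 (3.77 to 7.52 FPKM) overlapped. Ino80 was similar in level, at 7.28 (C1) and 6.81 FPKM (C2) in pair C, 7.55 (B1) and 5.41 FPKM (B2) in pair B, and 5.73 (A1) and 6.84 FPKM (A2) in pair A. Its pairs overlapped in each comparison. Its mean was 6.60 ± 0.85 FPKM (SD, n = 6), above Smarca4 in 4 of 6 libraries.

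Ep400 measured 2.21 (C1) and 2.25 FPKM (C2) in pair C, 3.73 (B1) and 2.61 FPKM (B2) in pair B, and 2.36 (A1) and 2.11 FPKM (A2) in pair A. Srcap measured 1.42 (C1) and 0.768 FPKM (C2) in pair C, 0.643 (B1) and 1.19 FPKM (B2) in pair B, and 1.38 (A1) and 0.605 FPKM (A2) in pair A. The means were 2.55 ± 0.61 and 1.00 ± 0.37 FPKM (SD, n = 6), and the order Smarca4 or Ino80, then Ep400, then Srcap held in 6 of 6 libraries with no overlap of the ranges. Gm42715 shares 61.7% of the exon bases of Srcap on the same strand, so the level of Srcap is uncertain. Kat5, the TIP60 acetyltransferase, measured 0.320 (C1) and 1.37 FPKM (C2) in pair C, 0.591 (B1) and 1.88 FPKM (B2) in pair B, and 0.249 (A1) and 0.668 FPKM (A2) in pair A. It rested on 0.5 to 4.5 reads per library, and its pairs overlapped. Its exons overlap those of Rnaseh2c (opposite strand) over 21.1%. Trrap, the large scaffold shared by TIP60 and SAGA, measured 0.493 (C1) and 0.370 FPKM (C2) in pair C, 0.379 (B1) and 1.00 FPKM (B2) in pair B, and 0.575 (A1) and 0.600 FPKM (A2) in pair A.

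Smarca2 (ENSMUSG00000024921.17, mm10 chromosome 19, 26605050 to 26778322) had the highest ratio of observed to Poisson variance of reads among the subunits. It measured 10.05 (C1) and 4.33 FPKM (C2) in pair C, 17.5 (B1) and 8.07 FPKM (B2) in pair B, and 19.1 (A1) and 4.42 FPKM (A2) in pair A, from 56 to 315 reads. The 3 libraries numbered 1 were all above the 3 libraries numbered 2, a difference that runs inside each pair. The exact Poisson intervals of library 1 and library 2 did not overlap in any pair (C1 8.77 to 11.5 and C2 3.27 to 5.62 FPKM, B1 15.6 to 19.5 and B2 6.77 to 9.53 FPKM, A1 16.9 to 21.5 and A2 3.45 to 5.58 FPKM). The ratio of the observed to the Poisson variance of its reads was 58.3, against a median of 3.20 for the tested subunits and 2.46 for all tested genes. At a given relative spread this ratio rises with the number of reads, and Smarca2 had 1075. It therefore does not rank the subunits by relative spread.

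The lowest Smarca2 values were in A2 and C2, the libraries with the lowest summed oocyte markers. Padi6, Nlrp5 and Zp3 did not follow that sum, and a link between the markers and Smarca2 was not tested. Without A2 and C2, Smarca2 averaged 13.7 FPKM, against 10.6 FPKM over all 6. As a result the ratio of Smarca2 to Smarca4 was 1.63 (C1) and 0.605 (C2) in pair C, 3.18 (B1) and 1.11 (B2) in pair B, and 3.54 (A1) and 0.941 (A2) in pair A. Smarca2 was thus the higher ATPase by FPKM in 4 of 6 libraries. This order depends on the annotated gene lengths, 14269 bases for Smarca2 and 6475 bases for Smarca4. Of the other tested subunits, Yeats4 was also higher in every library numbered 1, and Arid1a and Morf4l1 were lower. That is 2 of 37 subunits higher and 2 lower, where 10.1% and 4.78% of all tested genes were so separated. The numbers are those of the titles, and the labels do not say what they stand for.

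The AAA+ ATPases Ruvbl1 and Ruvbl2 assemble as a mixed ring in INO80, SRCAP and TIP60. Ruvbl1 measured 113.9 (C1) and 93.2 FPKM (C2) in pair C, 87.8 (B1) and 125.6 FPKM (B2) in pair B, and 88.7 (A1) and 94.4 FPKM (A2) in pair A. Ruvbl2 measured 3.54 (C1) and 2.66 FPKM (C2) in pair C, 1.91 (B1) and 4.33 FPKM (B2) in pair B, and 2.41 (A1) and 2.77 FPKM (A2) in pair A. Both genes ranked the 6 libraries in the same order, although Ruvbl2 rested on 7 to 16 reads. Ruvbl1 was below Actr6 in 4 of 6 libraries, and 3.08-fold above Yeats4, the next subunit, with no overlap of the ranges. The ratio of Ruvbl1 to Ruvbl2 was 29.0 to 46.1 in the single libraries.

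**Figure D2:**
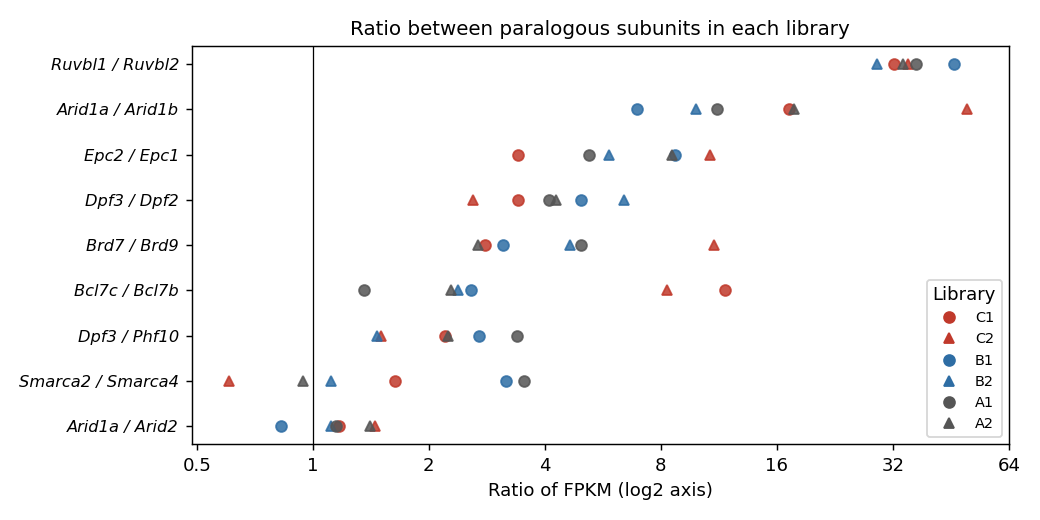
Ratio of FPKM between paralogous subunits in each library, on a log2 axis, with colour for the pair and circle or triangle for library 1 or 2. The ratio of Ruvbl1 to Ruvbl2 stays between 29.0 and 46.1, while that of Smarca2 to Smarca4 lies on both sides of 1.

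Other BAF positions that paralogues can fill were uneven. Smarcc1, a core scaffold, averaged 10.3 ± 2.76 FPKM and Smarcc2 0.88 ± 0.66 FPKM. Smarcd2 averaged 4.92 ± 2.42 FPKM, while Smarcd1 and Smarcd3 averaged 0.25 ± 0.31 and 0.20 ± 0.30 FPKM (SD, n = 6), the last with 48.2% of its exon bases shared with Chpf2. In both sets the higher gene led in 6 of 6 libraries.

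The ARID subunits define BAF subtypes. Arid1a (11.2 ± 1.42 FPKM) of canonical BAF and Arid2 (9.57 ± 1.24 FPKM) of PBAF lay close, with Arid1a higher in 5 of 6 libraries and a ratio of 0.829 to 1.45. Arid1b averaged 0.84 ± 0.41 FPKM and was below Arid1a in 6 of 6 libraries. Brd7 of PBAF averaged 18.2 ± 3.76 FPKM and Brd9 of non-canonical BAF 4.64 ± 2.17 FPKM, again in the same order in 6 of 6. Pbrm1, the polybromo subunit of PBAF, averaged 12.3 ± 2.07 FPKM.

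Of the PHD finger subunits, Dpf3, known from muscle and neuronal BAF, led at 5.73 ± 2.39 FPKM, followed by Phf10 of PBAF at 2.87 ± 1.83 FPKM and Dpf2 at 1.35 ± 0.50 FPKM. The neuronal form Dpf1 averaged 0.11 ± 0.24 FPKM, with 5 of its 5.5 reads in C1. Dpf3 was above Phf10 and Dpf2 in 6 of 6 libraries. Bcl7c averaged 5.02 ± 2.36 FPKM, Bcl7b 1.55 ± 0.82 FPKM and Bcl7a 0.0933 ± 0.0582 FPKM. Smarcb1 and Smarce1 of the core averaged 3.72 ± 1.60 and 4.86 ± 0.79 FPKM, and Ss18 of the canonical and non-canonical forms 3.00 ± 0.81 FPKM.

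Outside BAF, Yeats4, which reads acetylated histones in SRCAP and TIP60, measured 55.4 (C1) and 27.3 FPKM (C2) in pair C, 37.4 (B1) and 24.3 FPKM (B2) in pair B, and 28.3 (A1) and 23.4 FPKM (A2) in pair A. C1 alone was set apart. The TIP60 subunit Epc2 averaged 24.6 ± 4.20 FPKM and its paralogue Epc1 3.97 ± 1.68 FPKM, with Epc2 higher in 6 of 6 libraries. Ino80c was the steadiest of the abundant subunits at 18.5 ± 1.65 FPKM, with a variance ratio of 0.42, below the Poisson value of 1. Morf4l1, a chromodomain subunit of TIP60, averaged 5.60 ± 0.75 FPKM and Ing3, a PHD finger subunit, 3.30 ± 1.53 FPKM. The exons of Morf4l1 overlap those of Gm26882 (opposite strand, mean 12.7 FPKM) over 15.4%. The lower subunits were Dmap1 (1.76 ± 0.73 FPKM), Znhit1 of SRCAP (1.62 ± 1.42 FPKM), Ino80b (1.49 ± 1.04 FPKM) and Ino80e (1.04 ± 0.33 FPKM, SD, n = 6 throughout).

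Between pairs, no subunit passed the test. The fit was made with limma on log2(FPKM + 1) over 13443 genes, with Benjamini-Hochberg adjustment and a threshold of 0.05. The percentage of all genes called was 0 in each direction of each comparison, and 0 of 37 subunits were called. Pooled embryos give no way to tell fewer embryos with a transcript from less transcript in each. Fold changes below are log2 differences of FPKM + 1, so that changes of low genes come out too small, and comparisons that share a pair are not independent.

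Read by the annotation, pair C against pair B sets R62D against wild-type actin. Read by the titles, it sets non-injected embryos against R62D. Of 37 subunits 19 had a coefficient above 0 and the median was 0.01, beside 49.9% above 0 and a median of 0.00 over all genes. At an unadjusted p below 0.05, 1 subunit was higher and 0 were lower, where 1.64% of all genes were higher and 2.22% lower. Libraries did not overlap for 5 higher and 7 lower subunits (13.5% and 18.9%), beside 15.5% and 14.8% of all genes.

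The subunit with the unadjusted p below 0.05 was Vps72, the H2A.Z chaperone subunit of SRCAP and TIP60 (ENSMUSG00000008958.14, mm10 chromosome 3, 95111022 to 95123051). Vps72 measured 10.95 (C1) and 8.18 FPKM (C2) in pair C, 3.04 (B1) and 5.52 FPKM (B2) in pair B, and 6.59 (A1) and 4.42 FPKM (A2) in pair A. Both C libraries were above the other 4. The log2 fold change was 1.03 ± 0.42 (SE), with an unadjusted p of 0.0415 and an adjusted p of 1 (limma), and 0.68 without B1 to 1.37 without B2. Leaving out any library but B2 (2 subunits), or fitting only the compared pairs, left 0 subunits with an unadjusted p below 0.05. Next was Actr5 (ENSMUSG00000037761.16, mm10 chromosome 2, 158624888 to 158639211), at 2.46 (C1) and 4.87 FPKM (C2) in pair C, 0.378 (B1) and 1.60 FPKM (B2) in pair B, and 1.67 (A1) and 3.21 FPKM (A2) in pair A. B1 held 2 reads of Actr5 and C2 18.5, and library 2 was above library 1 in each pair. Its log2 fold change was 1.25 ± 0.55 (SE, unadjusted p = 0.0552, adjusted p = 1, limma), and 0.79 without B1 to 1.71 without B2.

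Bcl7b, an accessory BAF subunit, measured 0.802 (C1) and 0.459 FPKM (C2) in pair C, 1.97 (B1) and 2.26 FPKM (B2) in pair B, and 2.50 (A1) and 1.30 FPKM (A2) in pair A. Both C libraries lay below the other 4, on 3 reads and 1 read. The log2 fold change was -0.94 ± 0.49 (SE, unadjusted p = 0.0939, adjusted p = 1, limma). Znhit1, named after its values were seen, rested on 1 to 8 reads per library, and B1 (3.40 FPKM) and A1 (3.49 FPKM) stood above the other libraries, at 0.518 to 0.900 FPKM. Its exons overlap those of Plod3 (opposite strand) over 28.4%.

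**Figure D3:**
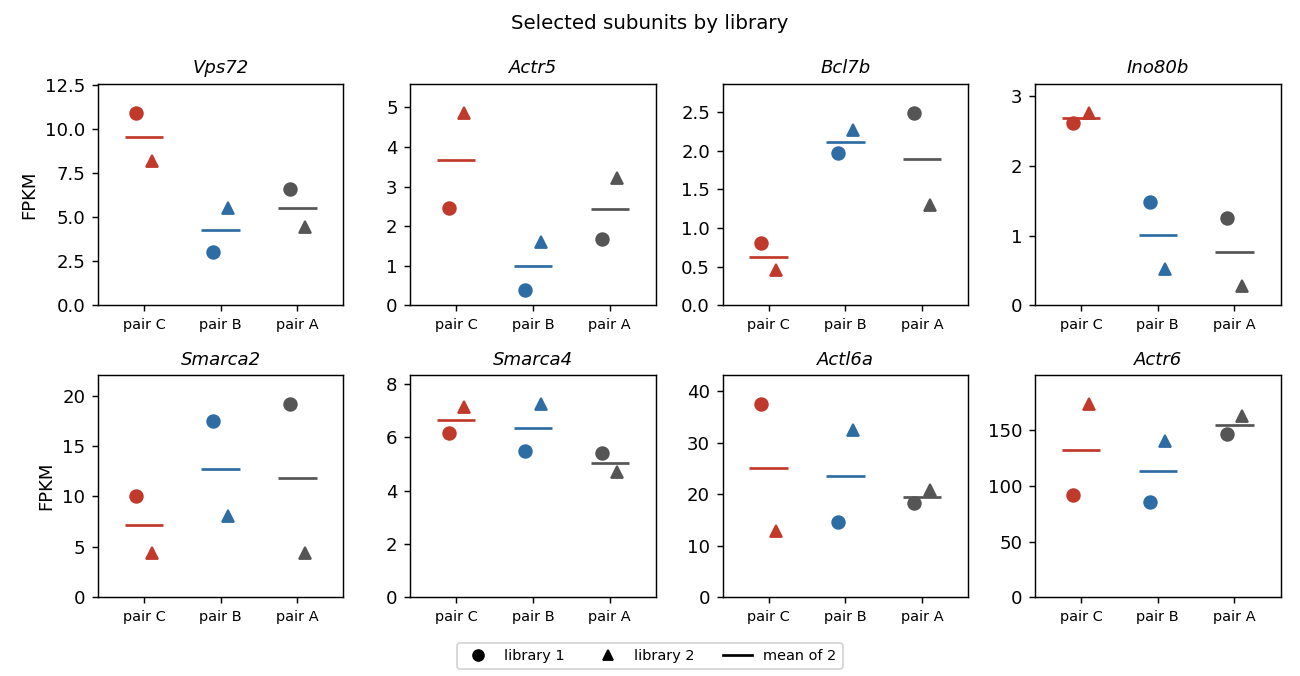
FPKM of 8 subunits by pair, with circles for library 1, triangles for library 2 and a bar at the mean of the 2 libraries. In Vps72 and Ino80b both C libraries are above the other 4, in Bcl7b both are below, and in Smarca2 library 1 is above library 2 in every pair.

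Pair C against pair A is R62D against embryos without injection in the annotation. In the titles it is embryos without injection against wild-type actin. Of 37 subunits 25 had a coefficient above 0 and the median was 0.15, beside 56.5% above 0 and a median of 0.06 over all genes. No subunit had an unadjusted p below 0.05 in either direction, where 1.67% of all genes were higher and 1.34% lower. Libraries did not overlap for 6 higher and 3 lower subunits (16.2% and 8.11%), beside 16.5% and 10.4% of all genes. The lowest p was that of Ino80b, an INO80 subunit (ENSMUSG00000030034.11, mm10 chromosome 6, 83121765 to 83125431), at 2.62 (C1) and 2.77 FPKM (C2) in pair C, 1.49 (B1) and 0.525 FPKM (B2) in pair B, and 1.25 (A1) and 0.281 FPKM (A2) in pair A. These values came from 0.5 to 6.5 reads. The log2 fold change was 1.12 ± 0.54 (SE, unadjusted p = 0.077, adjusted p = 1, limma), and 0.71 without A2 to 1.53 without A1.

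Vps72 had a log2 fold change of 0.71 ± 0.42 (SE, unadjusted p = 0.132, adjusted p = 1, limma) in C against A, and 0.46 without A2 to 0.95 without A1. Bcl7c, an accessory BAF subunit, measured 9.44 (C1) and 3.82 FPKM (C2) in pair C, 5.09 (B1) and 5.39 FPKM (B2) in pair B, and 3.39 (A1) and 2.97 FPKM (A2) in pair A. C1 was set apart from the other 5 libraries. The log2 fold change was 0.76 ± 0.46 (SE, unadjusted p = 0.139, adjusted p = 1, limma), and 0.21 without C1 to 1.32 without C2.

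Pair B against pair A is wild-type actin against embryos without injection in the annotation. In the titles it is R62D against wild-type actin. Of 37 subunits 28 had a coefficient above 0 and the median was 0.13, beside 55.1% above 0 and a median of 0.07 over all genes. No subunit had an unadjusted p below 0.05, where 2.77% of all genes were higher and 1.79% lower. Libraries did not overlap for 7 higher and 3 lower subunits (18.9% and 8.11%), beside 18.8% and 12.8% of all genes. The lowest p was that of Actr5, with a log2 fold change of -0.82 ± 0.55 (SE, unadjusted p = 0.175, adjusted p = 0.991, limma), and -1.28 without B2 to -0.37 without B1.

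Dmap1, a subunit of SRCAP and TIP60, measured 2.68 (C1) and 2.09 FPKM (C2) in pair C, 1.20 (B1) and 0.635 FPKM (B2) in pair B, and 1.90 (A1) and 2.04 FPKM (A2) in pair A. These values came from 2 to 11 reads, with 4 in B1 and 2 in B2. Both B libraries were the lowest, and the log2 fold change in B against A was -0.64 ± 0.46 (SE, unadjusted p = 0.2, adjusted p = 0.991, limma). Phf10 measured 3.60 (C1) and 1.91 FPKM (C2) in pair C, 2.01 (B1) and 6.22 FPKM (B2) in pair B, and 1.12 (A1) and 2.37 FPKM (A2) in pair A. B2 was the highest, with an exact Poisson interval (4.37 to 8.59 FPKM) that overlapped that of C1 (2.38 to 5.22 FPKM). The log2 fold change in B against A was 0.80 ± 0.57 (SE, unadjusted p = 0.201, adjusted p = 0.991, limma), and 0.17 without B2 to 1.43 without B1.

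**Figure D4:**
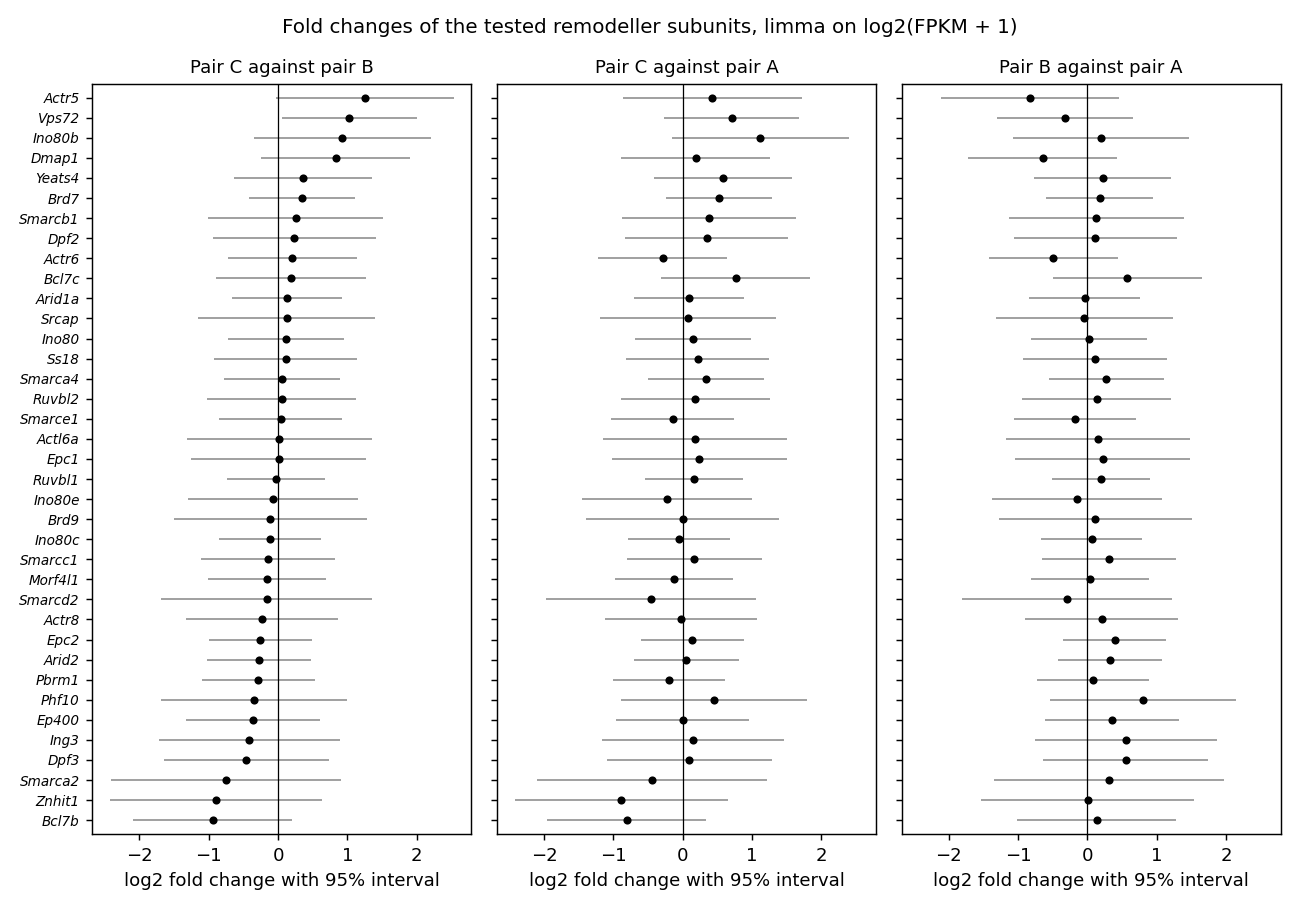
Log2 fold change of the 37 tested subunits in each comparison, with 95% intervals from limma, ordered by the values of pair C against pair B. Only the interval of Vps72 in pair C against pair B leaves out 0, before any adjustment over genes.

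The intervals show what the design could resolve. For Smarca4 the 95% interval of C against B ran from -0.77 to 0.90 and for Ino80c from -0.85 to 0.61 on the log2 scale, while for Smarca2 it ran from -2.41 to 0.90. A p that misses the threshold therefore does not show equal levels.

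A pattern across libraries, and not between pairs, was seen in 11 subunits. C1 and B2 held the highest values, in either order, for Actl6a, Ruvbl1, Ruvbl2, Smarcb1, Smarcc1, Smarcd2, Dpf2, Dpf3, Phf10, Bcl7c and Ing3. That is 29.7% of the 37 tested subunits, beside 12.7% of all 13443 genes, and the combination was chosen after the values were seen and has no test. Smarcc1, for example, measured 13.1 (C1) and 7.74 FPKM (C2) in pair C, 9.03 (B1) and 14.0 FPKM (B2) in pair B, and 7.40 (A1) and 10.6 FPKM (A2) in pair A. Smarcb1 measured 5.43 (C1) and 3.20 FPKM (C2) in pair C, 1.79 (B1) and 5.81 FPKM (B2) in pair B, and 2.46 (A1) and 3.61 FPKM (A2) in pair A. C1 was the deepest library with 1555431 assigned reads, while B2 had 1194638, fewer than B1 with 1264831. C1 and B2 belong to different pairs.

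Further genes of these pathways were taken as lists. Of 17 further subunits 13 were tested, and 0 passed in any comparison (limma). The median log2 fold change was 0.01 in C against B, -0.01 in C against A and 0.05 in B against A. At an unadjusted p below 0.05 this list gave 1 lower gene in each comparison with pair C and 0 in the third. It was Actb, the cytoplasmic actin that is itself a subunit of these complexes, at 30.9 ± 5.33 FPKM in pair C, 95.1 ± 29.7 FPKM in pair B and 60.6 ± 12.2 FPKM in pair A (SD, 2 libraries each). Its log2 fold change was -1.57 ± 0.35 against pair B and -0.95 ± 0.35 against pair A (SE, unadjusted p = 0.00248 and 0.0282, adjusted p = 1 in both, limma). Whether reads of injected actin mRNA are counted under a mouse actin gene was not tested. The histone variant genes that SRCAP and TIP60 serve were abundant, with H2afz at 1148 ± 212.6 FPKM and H2afv at 162.5 ± 45.8 FPKM (SD, n = 6).

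Of 34 genes of ISWI, CHD and other remodellers without actin-related subunits 28 were tested, and 0 passed (limma). The median log2 fold change was -0.04 in C against B, 0.08 in C against A and 0.24 in B against A. Over all genes it was 0.06 in C against A and 0.07 in B against A. At an unadjusted p below 0.05, 2 of the 28 were higher in B against A, where 2.77% of all genes were higher. They were the deacetylase Hdac2 (0.96 ± 0.40, SE) and the histone-binding Rbbp7 (0.72 ± 0.30, SE), with an adjusted p of 0.991 in both (limma). By level Smarca5, the ISWI ATPase, averaged 57.6 ± 11.2 FPKM (SD, n = 6), above each of the 5 ATPases of the actin-containing complexes in all libraries.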

How the data were processed

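The deposited table holds FPKM values made by the authors for 6 libraries, 1 column per library, with a gene length. The submitters' processing notes name Trimmomatic, Trim Galore, cutadapt, STAR, featureCounts and build mm10, without versions, and annotation and strand handling were not given in the sources used here. Without strand, reads of overlapping antisense genes cannot be told apart. Exons of 24 subunits overlapped another gene on either strand, 4 of them over at least 20%, and not every overlap is given. The table has 0 spike-in rows. The other 9 libraries of the series were not analysed here. Reads per gene were recovered from FPKM and length up to 1 factor per library, set so that the commonest product of FPKM and length above 0 is 1 read. Between 55.6% and 57.9% of values above 0 were then whole (tolerance 0.001 read) and the rest were fractions of reads, so read numbers are approximate. FPKM from all annotated exons lowers genes with long unused exons.

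log2(FPKM + 1) was fitted for 13443 genes averaging at least 1 FPKM, with limma 3.58.1 (R 4.3.3); the model had 1 mean per pair over 6 libraries and a variance trend. The method was tested on simulated data with large fold changes in well-covered genes, so that test does not cover the low subunits. Levels of single subunits have no test, and a p-value covers only the spread among these pools, which may be technical, since no label says that they came from separate matings. The subunits and lists were chosen with earlier results of these data known. Genes with values in every library were, per comparison, those with an unadjusted p below 0.05 or, where these were fewer than 3, the 3 lowest, the ATPases, Kat5, Trrap, actin-related and AAA+ subunits, the 3 most and 3 least abundant, with the least abundant by mean and reads; paralogue sets are given by means and ratios. Smarcb1, Smarcc1 and Znhit1 were added after their values were seen. Alternatives were another pseudocount, filter, scaling or trend, the compared pairs alone, a replicate block, limma-voom on recovered reads, and leaving out libraries.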

Additional observations from a re-analysis of the deposited data

How the results depend on the processing

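No subunit was called in any comparison under any of the 16 alternatives, and its smallest adjusted p over them was 0.88 in C against B, 0.989 in C against A and 0.863 in B against A (limma). Over all genes, a pseudocount of 0.1 called 1 gene in C against B, Igkv13-87, with 0 reads in pair C. The median fold change of the subunits was -0.17 to 0.13 in C against B when single libraries were left out, with -0.17 without C1 and -0.16 without B1, 0.02 to 0.27 in C against A, and 0.07 to 0.17 in B against A. Without A2 and C2 it was 0.30 in C against A. The cause was not tested. The fold changes of Vps72, Actr5, Bcl7b, Ino80b, Bcl7c, Dmap1 and Phf10 in the comparisons for which the report gives them kept their sign under every alternative that could be fitted. Those of other genes were not compared across alternatives.

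The correlation of deviations between same-numbered libraries was 0.00499 (C and B), 0.203 (C and A) and 0.098 (B and A) over all tested genes, and -0.133, 0.109 and 0.506 over the tested subunits. Not every pair exceeded 0.1 over all genes and the labels give the numbers no meaning, so the libraries were not treated as paired. With the replicate number as a block 0 subunits were called, the medians were 0.01, 0.15 and 0.13, and 2 subunits in place of 1 had an unadjusted p below 0.05 in C against B. Depth limits the low subunits: 1 read in a gene of 2 kb is worth 0.321 to 0.551 FPKM.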
